A study of Mus musculus with 2 samples.

Results

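Complement is a set of plasma and cell-surface proteins that mark microbes, immune complexes and dying cells for uptake or lysis. In its classical pathway the recognition protein C1q, built of A, B and C chains, binds a target and activates the serine proteases C1r and C1s. C1s then cleaves C4 and C2, and the resulting convertase cleaves C3. The serpin C1 inhibitor, encoded by Serping1, shuts C1r and C1s down, and properdin, encoded by Cfp, stabilises the C3 convertase of the alternative pathway. Liver makes most of the circulating components, whereas C1q is known as a product of macrophages and related myeloid cells.

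The genes described here are 9 of the 34295 genes in the expression table, chosen by name: C1qa, C1qb, C1qc, C1ra, C1s1, C3, C4b, Cfp and Serping1. Each stood on a single row. RNA came from wild-type C57BL/6J mouse cells, with 1 library of embryonic fibroblasts and 1 library of bone marrow derived macrophages. The fibroblasts were grown from E13.5 to E14.4 embryos without head or red tissue, cleared by sorting of cells with CD45, CD11b or F4/80, and used at passage 4 to 7 in DMEM with 10% serum, with 100000 cells collected. The macrophages were differentiated from whole bone marrow for 6 days in RPMI with 10% serum and 30% medium conditioned by L929 cells, a fibroblast line used as a source of macrophage growth factor, and were plated at 750000 cells. Neither the number of mice nor that of embryos behind a culture is given in the sources used here. Levels are in transcripts per 1000000 transcripts (TPM), which are scaled to transcript length, so that genes can be compared within a library.

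Since neither group was replicated, values carry no error and were not tested, and TPM keep no read depth. A gene is called higher in 1 library when, after 1 was added to each TPM, the levels differed 4-fold or more (a log2 ratio of 2) and the higher one was 5 TPM or above. All log2 ratios are of fibroblast over macrophage on the TPM plus 1 scale, so positive values lie toward fibroblasts, whereas folds are ratios of the TPM themselves. The macrophage label was met by 17 of 18 macrophage markers, and the fibroblast label by 20 of 20 fibroblast markers, each called higher in its own library. The marker outside the call was the scavenger receptor gene Cd163, at 1.84 TPM in the macrophage library and 0.0346 in the fibroblast library. Cell type, culture medium, cell number and preparation differ together between the libraries and cannot be told apart, and fewer cells of a type cannot be told apart from less RNA per cell.

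The 9 genes were not all on the same side of the comparison. The C1q chains, C3 and Cfp were higher in the macrophage library, and C1ra, C1s1 and Serping1 in the fibroblast library. C4b was below 5 TPM in both libraries and could not be called. The call was thus made for macrophages in 5 of the 9 genes and for fibroblasts in 3. Among the 11191 genes at 5 TPM or above in either library, it was made for macrophages in 8.77% and for fibroblasts in 14.3%, which is 23.1% together. The 9 genes were picked with earlier results of these libraries known, so their count is a description.

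**Figure D1:**
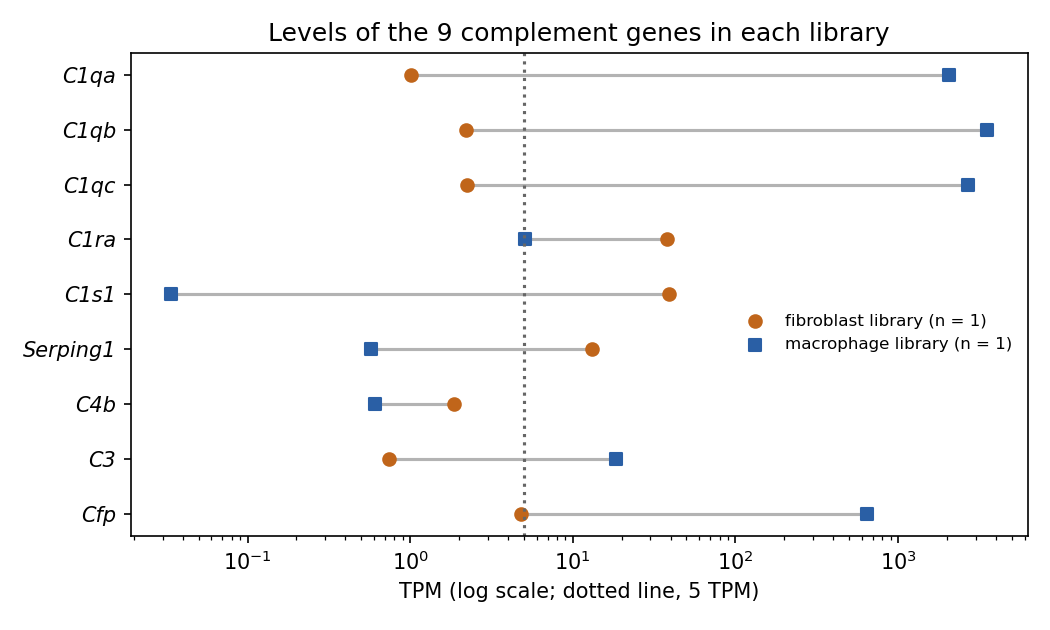
TPM of each of the 9 complement genes on a log axis, with circles for the fibroblast library and squares for the macrophage library, 1 library each; the dotted line marks 5 TPM. The C1q chains lie between 2049 and 3514 TPM in macrophages and at or below 2.23 in fibroblasts, whereas C1ra and C1s1 lie at 38.1 and 39.0 TPM in fibroblasts.

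The promoter windows of members that lie together in the genome and on the same side of the comparison are shown first, C1qb and C1qc for macrophages and C1ra and C1s1 for fibroblasts, with Cfp as a macrophage-side gene on another chromosome. They are RefSeq windows on GRCm38.p6, from 250 bases before to 50 after the annotated start, written 5′ to 3′ on the strand of the gene. Capitals mark every match to 8 motifs, searched on both strands: GAGGAA, the core bound by the myeloid factor PU.1; TGCTGA, part of the site of MAF factors; TTGCNNAA for C/EBP factors; an interferon response element made of paired GAAA blocks; TTCNNNGAA for STAT factors; an NF-kB site; TGANTCA for AP-1; and the TATA box TATAAA. No matches overlapped one another in these windows. C1qb lies at chr4:136886151-136886450, C1qc at chr4:136892865-136893164 and Cfp at chrX:20931506-20931805, all on the minus strand. C1ra lies at chr6:124512371-124512670 on the plus strand, and C1s1 at chr6:124542310-124542609 on the minus strand.
C1qb: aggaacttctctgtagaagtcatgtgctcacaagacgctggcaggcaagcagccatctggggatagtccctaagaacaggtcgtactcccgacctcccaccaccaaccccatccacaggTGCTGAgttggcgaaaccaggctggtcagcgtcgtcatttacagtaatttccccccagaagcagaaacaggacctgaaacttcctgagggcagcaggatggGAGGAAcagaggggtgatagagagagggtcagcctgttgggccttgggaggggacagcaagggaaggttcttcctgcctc
C1qc: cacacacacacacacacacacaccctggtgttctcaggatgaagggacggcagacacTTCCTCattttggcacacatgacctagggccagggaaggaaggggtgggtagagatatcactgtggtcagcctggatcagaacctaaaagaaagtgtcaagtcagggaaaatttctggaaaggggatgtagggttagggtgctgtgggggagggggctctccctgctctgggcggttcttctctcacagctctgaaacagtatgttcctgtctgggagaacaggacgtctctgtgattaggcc
Cfp: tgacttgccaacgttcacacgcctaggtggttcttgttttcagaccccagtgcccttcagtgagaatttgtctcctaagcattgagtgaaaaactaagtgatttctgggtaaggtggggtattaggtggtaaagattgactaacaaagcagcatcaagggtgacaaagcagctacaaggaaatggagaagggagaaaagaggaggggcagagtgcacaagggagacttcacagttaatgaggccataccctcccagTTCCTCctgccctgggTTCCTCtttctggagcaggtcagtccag
C1ra: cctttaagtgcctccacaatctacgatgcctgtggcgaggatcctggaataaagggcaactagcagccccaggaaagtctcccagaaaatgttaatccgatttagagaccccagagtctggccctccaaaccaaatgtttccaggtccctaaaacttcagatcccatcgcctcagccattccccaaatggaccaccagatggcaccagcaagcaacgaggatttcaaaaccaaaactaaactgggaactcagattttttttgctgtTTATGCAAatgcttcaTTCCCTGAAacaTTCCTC
C1s1: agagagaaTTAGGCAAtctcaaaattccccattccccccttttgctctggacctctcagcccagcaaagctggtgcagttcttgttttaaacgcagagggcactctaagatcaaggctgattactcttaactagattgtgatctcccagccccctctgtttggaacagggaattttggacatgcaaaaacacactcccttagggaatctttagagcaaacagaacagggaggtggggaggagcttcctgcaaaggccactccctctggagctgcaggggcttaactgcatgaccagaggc

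The table of promoters held 7 windows for 6 of the 9 genes, with 2 overlapping windows for C1s1, and none was used for C1qa, C4b or Serping1. GAGGAA was found for C1qb, C1qc, Cfp and C1ra, which are 4 of the 6 genes, and in 28.3% of all 32851 windows. The C1qb match lay 30 to 25 bases before the annotated start on the strand of the gene. In C1qc it lay 193 to 188 bases before the start on the opposite strand. Cfp had matches at 6 to 11 and at 22 to 27 bases after the start, both on the opposite strand. C1ra, a gene higher in fibroblasts, held it at 44 to 49 bases after the RefSeq start, so among these windows the match did not separate the sides. In GENCODE M21, C1ra starts at 124512405 and C1qc at 136893065, within their windows but upstream of the RefSeq starts used. The distances of matches in C1ra and C1qc therefore hold for the RefSeq starts only, and by GENCODE the C1ra matches lie deeper inside the gene.

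TGCTGA was found for C1qb and C3, and in 19.5% of all windows. TTGCNNAA was found for C1ra, C1s1 and C3, against 10.8% of all windows. Of the overlapping C1s1 windows only the one shown held it, and the other held no match to any motif. Members are counted by gene, whereas the shares are of windows. C1ra alone held TTCNNNGAA, present in 8.30% of all windows, and C3 alone TATAAA, present in 13.6%. The TATAAA match of C3 lay 14 to 19 bases after the annotated start, not before it. The interferon, NF-kB and AP-1 letters were in none of the member windows and in 3.44%, 0.411% and 7.81% of all windows. These are matches of letters in a short window, and no binding was measured.

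The C1q chains were among the most abundant transcripts of the macrophage library. C1qa, the A chain, reached 2049 TPM in macrophages against 1.01 TPM in fibroblasts and thus differed 2025-fold. C1qb, the B chain, stood at 3514 TPM against 2.21, a 1591-fold difference. C1qc, the C chain, stood at 2689 TPM against 2.23, a 1208-fold difference. Ranked among all genes of the macrophage library, C1qb was at place 24, C1qc at 38 and C1qa at 53. The chains added up to 8252 TPM, or 0.825% of the macrophage library, against 5.45 TPM in the fibroblast library.

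The C1q protein holds its chains in equal numbers, and their transcript levels were of one order but not equal. In macrophages the order was C1qb, C1qc, C1qa, with C1qb at 1.72 times and C1qc at 1.31 times the TPM of C1qa. In the fibroblast library C1qa was again the lowest, with C1qb and C1qc at 2.18 and 2.20 times its TPM. Without replicates it cannot be said whether neighbours in these orders differ beyond their spread.

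C1ra and C1s1 ran the other way. C1ra, which encodes the protease C1r that is activated first, had 38.1 TPM in fibroblasts and 5.07 in macrophages, which is 7.52-fold lower, with a log2 ratio of 2.69. C1s1, which encodes the protease C1s that cleaves C4 and C2, had 39.0 TPM in fibroblasts and 0.0340 in macrophages, with a log2 ratio of 5.27. In fibroblasts the TPM of these partners were nearly equal, with a C1ra to C1s1 ratio of 0.978. In macrophages C1ra remained above 5 TPM while C1s1 was close to 0, a ratio of 149.

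Set against each other, the recognition and protease parts of C1 were reversed in abundance between the libraries. The mean TPM of the C1q chains was 1078 times the mean of C1ra and C1s1 in macrophages and 0.0471 times that mean in fibroblasts. Neither library therefore held all 5 C1 genes at 5 TPM or more: macrophages lacked C1s1 by this limit, and fibroblasts the C1q chains.

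Near-identical copies bear on the protease values. Of the 31-base words in the longest coding transcript of C1ra in GENCODE M21, 59.6% also occurred in transcripts of other genes, 56.9% in C1rb. For C1s1 the shares were 51.9% in any other gene and 36.5% in C1s2. Words were compared on both strands, so sharing outside C1s2 can include antisense transcripts, such as those of Gm16567, which overlaps C1s1. Such sharing was not separated from that with copies. The copies themselves took little of the signal in the table, with C1rb listed at 0 in both libraries and C1s2 at 0.0385 TPM in fibroblasts and 0.0373 in macrophages. C4b shared 48.8% of its words with C4a, a copy that had no listed value. Whether reads of C4a were counted as C4b is not known, so the C4b value is uncertain. The C1q chains, C3, Cfp and Serping1 shared none.

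Serping1, whose product inactivates C1r and C1s, stood on the same side as the proteases. Its TPM was 13.2 in fibroblasts against 0.578 in macrophages, 22.8-fold apart, with a log2 ratio of 3.17. With 5 in place of 1 added to each TPM, the log2 ratio was 1.71 and the call was lost. Its level in fibroblasts was below that of either protease gene.

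The substrates of the pathway were low in at least 1 library each. C4b, which encodes C4, stood at a fibroblast TPM of 1.86 and a macrophage TPM of 0.607, with a log2 ratio of 0.83. C2, the partner of C4 in the classical convertase, was likewise low, at 2.39 and 0.854 TPM. C3, the central component on which all pathways converge, reached 18.4 TPM in macrophages against 0.746 in fibroblasts, 24.6-fold apart, with a log2 ratio of -3.47. In macrophages C3 was thus far below the C1q chains, and at place 6090 among all genes of that library. C4b and C2 lay below 5 TPM in both libraries.

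In macrophages Cfp was the most abundant of the 9 genes after the C1q chains. Its 649 TPM in macrophages, place 237 of that library, compared with 4.78 TPM in fibroblasts, 136-fold lower, with a log2 ratio of -6.81. Properdin acts in the alternative pathway, whose other components were low: factor B, Cfb, stood at 7.74 TPM in macrophages and 2.53 in fibroblasts, and factor D, Cfd, was listed at 0 in macrophages and at 0.582 TPM in fibroblasts. Neither gene was called.

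**Figure D2:**
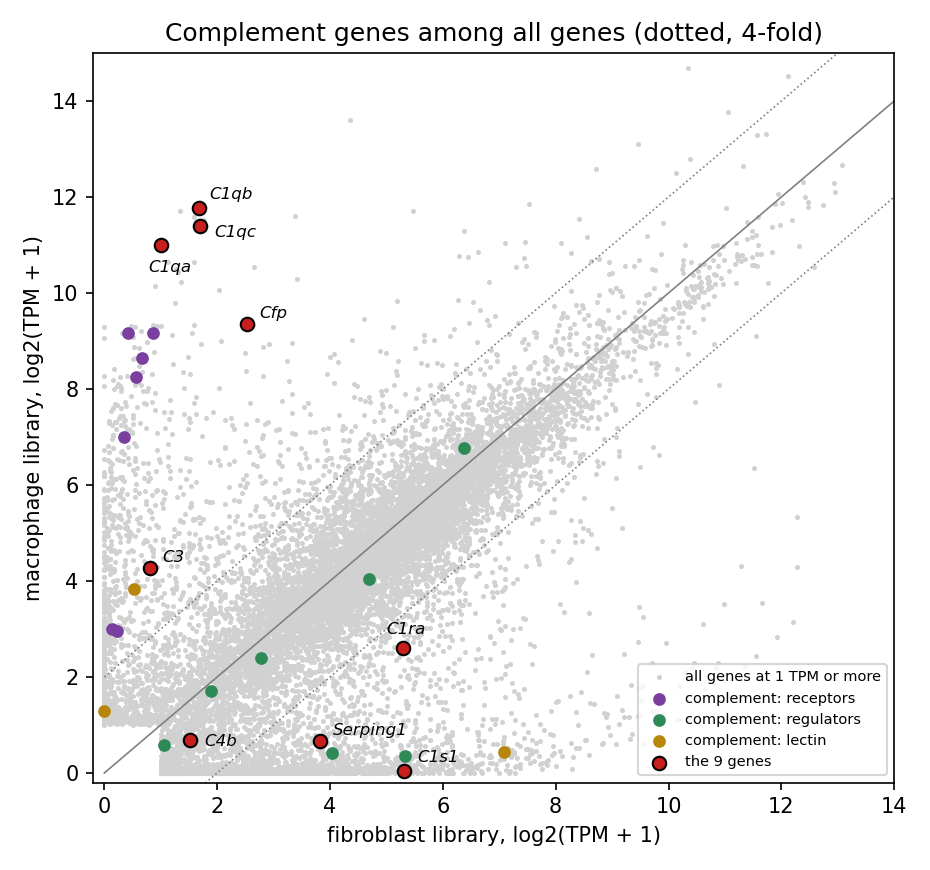
Each gene detected at 1 TPM in either library, by log2(TPM + 1) in the fibroblast library (x axis) and the macrophage library (y axis); the 9 genes are red, further complement receptors purple, regulators green and lectin pathway genes gold, and dotted lines mark 4-fold. C1qa, C1qb, C1qc and Cfp lie at the upper left with 5 of the receptors, and C1ra, C1s1 and Serping1 at the lower right of the diagonal.

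The low values in the library opposite were set beside those of marker genes measured the same way. The fibroblast level of the C1q chains was 0.0494% of the macrophage level for C1qa, 0.0629% for C1qb and 0.0828% for C1qc. For the 17 macrophage markers called higher in macrophages, this share had a median of 0.159%, from 0.0384% for Fcgr1 to 20.8% for Mertk, and 15 of them had a higher share than C1qa or C1qb and 12 than C1qc. The genes of the proteins used in the sort, Ptprc, Itgam and Adgre1, were between 0.352 and 0.483 TPM in the fibroblast library, and Lyz2 was the highest macrophage marker there at 19.4 TPM. The shares of the C1q chains lie within the range of these 17 markers. The call itself limits such shares from above and Mertk widens the range, so lying within it says little. Cfp and C3, at 0.736% and 4.06%, had higher shares than 16 of the 17, with Mertk above them.

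In the reverse direction, the 20 fibroblast markers stood in the macrophage library at a median of 0.167% of their fibroblast level, from 0.0693% for Lum to 0.523% for Fn1. C1s1, at 0.0874%, lay within that range, above 1 marker and below 19. C1ra at 13.3% and Serping1 at 4.38% were above all 20. The macrophage level of these genes was thus larger, relative to the fibroblast level, than that of any listed fibroblast marker.

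**Figure D3:**
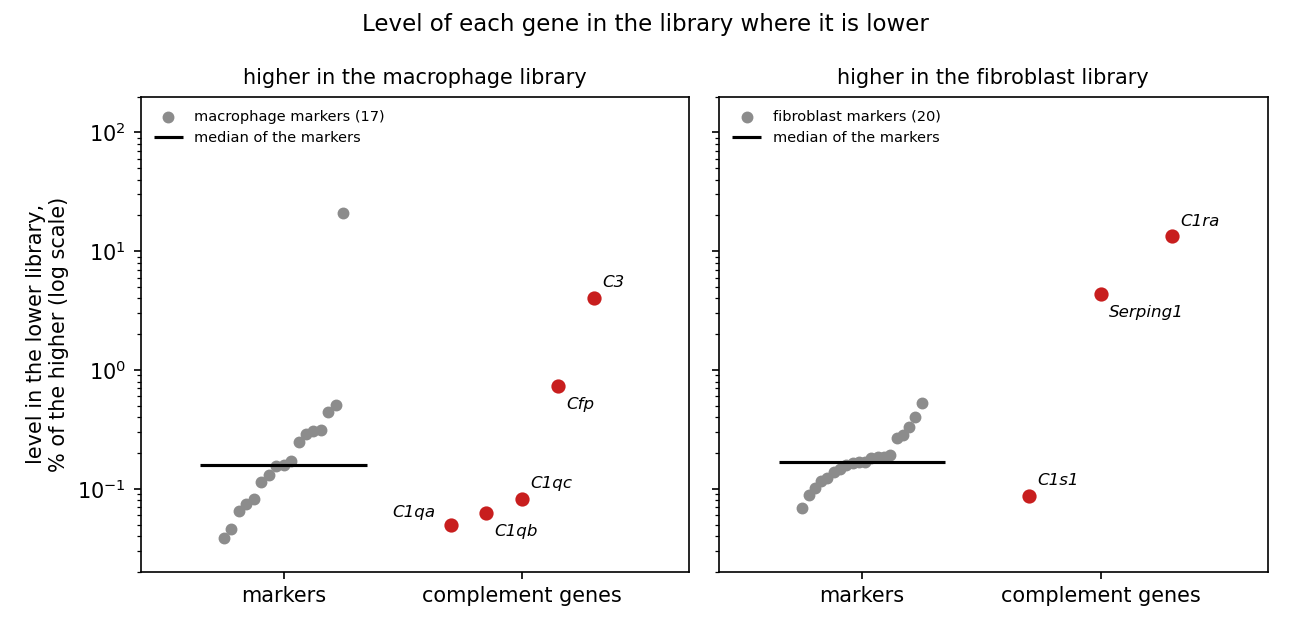
Level of a gene in the library where it is lower, as a percent of its level in the library where it is higher, on a log axis; grey points are 17 macrophage markers (left) and 20 fibroblast markers (right), black lines their medians of 0.159% and 0.167%, and red points the called complement genes. The C1q chains and C1s1 lie below those medians, and C1ra, Serping1, C3 and Cfp above them.

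Markers of other cell types were also read. Of 10 neutrophil genes, 6 were called for macrophages, against 8.77% of all genes at 5 TPM or above. The whole list summed to 505 TPM in macrophages and to 2.21 in fibroblasts. In macrophages S100a9 reached 268 TPM and Elane 2.34, and Ly6g was listed at 0 in both libraries. Neutrophils are a known source of properdin, and their part in the Cfp and C3 values was not tested. Of 10 hepatocyte genes only Trf, encoding transferrin, was called, at 88.1 TPM in macrophages against 0.989, while Alb, encoding albumin, had 5.33 TPM in fibroblasts and 3.43 in macrophages. The summed hepatocyte list came to 109 TPM in macrophages and 15.2 in fibroblasts. Mast cell, erythroid and dendritic cell lists summed to at most 8.71 TPM in either library, B cell and T and NK cell lists to at most 4.42, and the epithelial list to at most 1.41. The endothelial list was led by Erg in fibroblasts, at 7.35 TPM, and Kdr in macrophages, at 6.14. Muscle genes summed to 77.5 TPM in fibroblasts and 0.814 in macrophages, nearly all of it Acta1, and adipocyte genes to 96.7 and 356 TPM, mostly Fabp4 and Lpl.

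The C1q genes form a cluster of 18675 bases on chromosome 4, at 136880129 to 136898803 in GENCODE M21 on GRCm38, all on the minus strand in the order C1qb, C1qc, C1qa. Their identifiers are ENSMUSG00000036905, ENSMUSG00000036896 and ENSMUSG00000036887. The nearest coding genes, named by position, were not high in macrophages. Ephb2, an ephrin receptor gene 44141 bases away, was called for fibroblasts, with 37.9 TPM there and 0.161 in macrophages. Epha8, 30616 bases away on the other side, stood at 0.103 TPM in macrophages and was listed at 0 in fibroblasts, and Zbtb40 had 4.43 TPM in fibroblasts and 4.49 in macrophages.

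C1ra and C1s1 lie beside each other on chromosome 6, at 124512405 to 124523443 on the plus strand (ENSMUSG00000055172) and 124530345 to 124542359 on the minus strand (ENSMUSG00000038521). The related gene C1rl, 1762 bases from C1ra, was at 5.26 TPM in fibroblasts and 1.51 in macrophages, in the direction of C1ra without meeting the call. C1rb and C1s2, on the other side of C1s1, were at or near 0 in both libraries. Pex5, a peroxisome import gene at the edge of the region, stood at 37.4 and 21.1 TPM. None of the 5 other coding genes within 100 kb with a value was called.

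**Figure D4:**
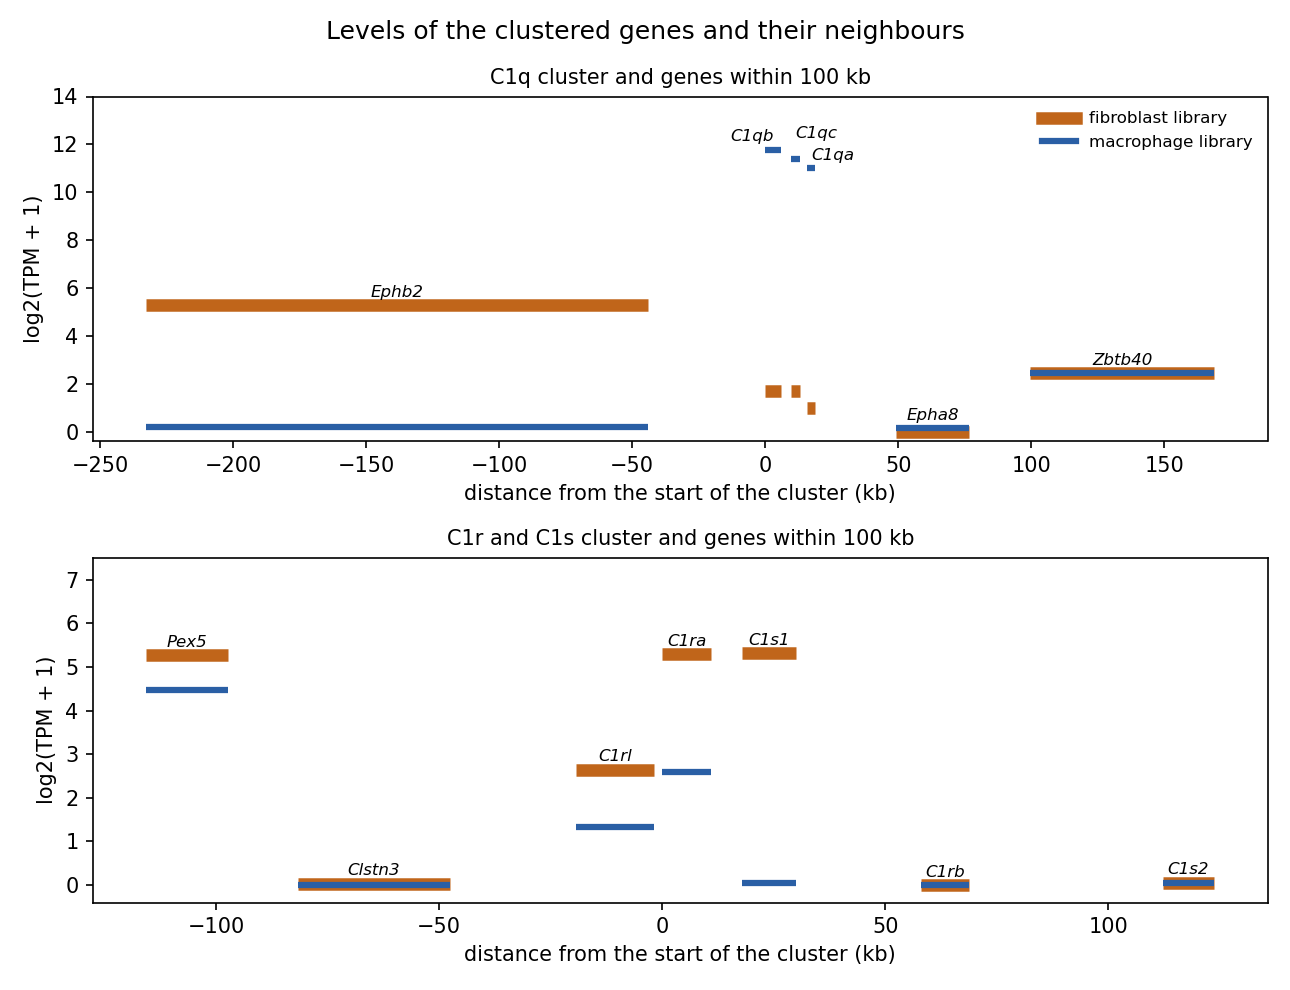
Levels as log2(TPM + 1) of the C1q genes (top) and of C1ra and C1s1 (bottom) with coding genes within 100 kb, drawn over the length of each gene against the distance in kb from the start of the cluster; thick orange bars are the fibroblast and thin blue bars the macrophage library. The 3 C1q genes stand high in macrophages between Ephb2, which is higher in fibroblasts, and Epha8, which is near 0 in both.

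The remaining genes lie apart. C3 is on chromosome 17 at 57203970 to 57228136 and C4b on chromosome 17 at 34728380 to 34743882. Serping1 is on chromosome 2 at 84765387 to 84775444 and Cfp on the X chromosome at 20925454 to 20931555, all on the minus strand. Of the 6 coding neighbours of C3 with a value, 3 were called for macrophages, against 8.77% of all genes at 5 TPM or above. These were Vav1, a signalling gene of blood cells, at 143 TPM against 0.158, and the cytokine genes Tnfsf9 and Tnfsf14. Tnfsf9 stood at 30.3 TPM against 5.59 in fibroblasts and Tnfsf14 at 7.23 against a listed 0, so both lay near a limit of the call. Gpr108, Trip10 and Cd70 were not called. Near Cfp the protease inhibitor gene Timp1 was called for fibroblasts, with 1565 TPM there and 7.57 in macrophages, and the closest gene Elk1, 1840 bases away, stood at 20.0 and 14.1 TPM. None of the 9 coding neighbours of C4b was called. Of the 14 neighbours of Serping1, Ube2l6 alone was called, and it was higher in macrophages, at 135 TPM against 9.09.

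The rest of the complement system was read from lists of 49 further gene symbols, of which 47 were in the table. Of these, 21 were detected, meaning 1 TPM or above in either library. The macrophage side held 8 of these 21 and the fibroblast side 3, while 10 met no call, and the median of their log2 ratios was -0.39. Over all 13606 detected genes the median was 0.28, and 981 were called for macrophages and 1602 for fibroblasts.

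Complement receptors were on the macrophage side. Of 9 genes, 7 were detected, and all 7 were called for macrophages, against 8.77% of all genes at 5 TPM or above. The median log2 ratio of the 7 was -7.68. The anaphylatoxin receptor genes C5ar1 and C3ar1 reached 573 and 398 macrophage TPM, with 0.342 and 0.589 in fibroblasts, and the second C5a receptor gene C5ar2 at 6.78 against 0.169. Itgb2, the shared chain of complement receptors 3 and 4, stood at 576 TPM against 0.817. Its partners Itgam and Itgax stood at 303 and 6.96 TPM against 0.483 and 0.0971. Cd93, once described as a C1q receptor, stood at 127 TPM against 0.268. Several of these are macrophage genes in any setting, and Itgam is also on the macrophage marker list, so the list is not independent of it. C5ar2 and Itgax lost the call with a minimum of 10 TPM or with 5 added to each TPM.

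The lectin pathway starts from other recognition proteins but uses proteases related to C1r and C1s, and 1 of its detected genes was called on each side. Masp1, which encodes such a protease, had 134 TPM in fibroblasts and 0.360 in macrophages, with a log2 ratio of 6.63. Fcna, which encodes the recognition protein ficolin A, stood at 13.3 TPM in macrophages and 0.435 in fibroblasts, with a log2 ratio of -3.32. With 5 added to each TPM, Fcna was not called. Fcnb, another ficolin gene, reached 1.46 TPM in macrophages, and the 5 other lectin genes were below 1 TPM in both libraries.

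Regulators protect the body's own cells from complement. Of 18 regulator genes in the table, 10 were below 1 TPM in both libraries. Of the 8 detected, 3 were higher in fibroblasts, including Serping1, none in macrophages, and 5 were not called. Among the regulators 6 reached 5 TPM, and of all genes at that level 14.3% were called for fibroblasts and 8.77% for macrophages. Cd55, which encodes decay-accelerating factor, stood at 39.1 TPM in fibroblasts against 0.282, and Clu, encoding clusterin, at 15.5 against 0.338. With 5 added to each TPM, Clu and Serping1 were not called. Cr1l, which encodes the rodent regulator Crry, was the most abundant and did not meet the call, at 82.0 TPM in fibroblasts and 108 in macrophages. Cd59a, whose product blocks the membrane attack complex, had 24.8 TPM in fibroblasts and 15.5 in macrophages, and Cd59b 5.86 and 4.26; as similar copies, their division of reads is uncertain.

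Terminal components, which form the membrane attack complex, were at or near 0. Of 7 genes, 6 were below 1 TPM in both libraries, including Hc, the gene of C5, at 0.177 TPM in fibroblasts and 0.214 in macrophages. C8g was the one above that limit, at 2.79 and 2.43 TPM. C5ar1 was thus abundant in a library where the gene of its ligand was below 1 TPM.

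Genes sharing the C1q domain outside the complement system were read for comparison, since the domain is also found in collagens and hormones. Of 26 genes, 14 were detected, 8 of them called for fibroblasts, 1 for macrophages and 5 not called. The median log2 ratio of the 14 was 3.32. A call needs 5 TPM, which 11 of the 26 reached. Of all genes at 5 TPM or above, 14.3% were called for fibroblasts and 8.77% for macrophages. The fibroblast and macrophage levels were 232 and 0.208 TPM for Col8a1 and 154 and 0.0945 TPM for Col10a1, and those of C1qtnf3 were 92.3 and 0.0856 TPM. Emilin2 was the gene higher in macrophages, at 141 TPM against 17.6. Among 8 genes whose products are described to bind C1q, the widely expressed Calr and Lrp1 did not meet the call, at 1501 and 187 TPM in fibroblasts and 1532 and 355 in macrophages. Lair1, an inhibitory receptor gene, was higher in macrophages at 184 TPM against 0.0815.

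Several complement genes, among them C3, C4b, Serping1, C1ra and C1s1, are known to respond to interferon or inflammation, so lists of such genes were read beside them. Of 18 interferon-stimulated genes, 14 were called for macrophages and none for fibroblasts, against 8.77% and 14.3% of all genes at 5 TPM or above. The median log2 ratio of the 18 was -3.33. Irf7 and Oas1a stood at 327 and 199 TPM in macrophages against 1.63 and 0.302. Of the complement genes just named, C3 was higher in the same library as those 14 genes, Serping1, C1ra and C1s1 were higher in the other, and C4b was not called. Whether interferon or inflammation had a part in these levels was not tested. Of 16 acute phase genes, 6 were detected; Saa3 and Lcn2 were higher in macrophages at 23.5 and 30.1 TPM, and Ptx3, which encodes the C1q-binding pentraxin PTX3, was called for fibroblasts, with 254 TPM there and 0.107 in macrophages.

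The genes nearest to each member in level were found by the distance between log2(TPM + 1) values over the 2 libraries. Nearest to C1qb were Tyrobp, Ctss and Lilrb4a, at 3085, 2931 and 2829 TPM in macrophages, and the same genes in another order were nearest to C1qc. Nearest to C1qa were Mpeg1, Trem2 and Cd52, at 1606, 1452 and 1381 TPM. Within a distance of 1 lay 11 genes for C1qa, 5 for C1qb, 9 for C1qc and 10 for Cfp. Nearest to Cfp were Ucp2, Igf1 and Apobec1. More genes lay within that distance of the called members with lower levels. They were 245 for C1ra, 332 for C1s1, 591 for Serping1 and, on the macrophage side, 217 for C3. Eln, the elastin gene, was nearest to C1s1, Ddit4 to C1ra and Rasal2 to Serping1. Nearest to C3 was Smagp. C4b was itself below 5 TPM, while only genes at 5 TPM or above were compared. No gene could therefore lie within a distance of 1 of C4b, and that absence is not a result. With 2 libraries such nearness says only that levels are alike.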

How the data were processed

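RNA of 1 fibroblast and 1 macrophage library was prepared with a stranded poly(A) kit and sequenced in paired reads of 76 bases, per the labels' protocols. The deposited values are TPM, a unit read from the values, since each column of the authors' table sums to just under 1000000 (999545 and 999609). The authors' tool was kallisto 0.43.1 with GRCm38, per the submitters' processing notes; for the transcript set and filters, the sources used here name nothing. Since TPM keep no depth, no interval or detection limit could be computed, and a value of 0 is only the listed value.

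Rows sharing a symbol were added, giving 34295 genes from 34456 rows, of which 32189 matched GENCODE M21. Each group being 1 library, nothing was tested. The size rule, 4-fold on TPM plus 1 and 5 TPM, was applied to all genes. Its code was run on simulated data with 200 changed genes, all with means well above 5 TPM and planted changes above 4-fold. Recovery of changes near either limit was not checked. Named genes are the 9 members, listed complement genes at 5 TPM or more, copies and positional neighbours of members, the 3 nearest genes by level, and, where a result turns on them, genes of the marker lists. Genes named from the other lists, and complement genes below 5 TPM, were chosen after their values were seen. The members and lists were chosen with earlier results of these data known. Words of 31 bases, on both strands, were compared across GENCODE M21 transcripts. Python 3.11.15, pandas 2.3.3 and numpy 2.4.6 were used. The alternatives were other pseudocounts, minimums, folds and scalings, the highest row of a symbol, and coding genes only.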

Additional observations from a re-analysis of the deposited data

How the results depend on the processing

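Of the 10 alternatives, other minimums, the 2-fold limit, the highest row and coding genes only cannot move the log2 ratio of a member by construction. Only the other pseudocounts and scalings can, so many of the 90 ratios listed for the 9 genes repeat the main value. Each of the 90 kept its direction, and 89 kept their side of the size rule. The exception was Serping1 with a pseudocount of 5, at a log2 ratio of 1.71 in place of 3.17, which left 2 of the 9 genes higher in fibroblasts and 2 in neither library. The same pseudocount lowered the further complement genes higher in macrophages from 8 to 5, by C5ar2, Fcna and Itgax, and those higher in fibroblasts from 3 to 2, by Clu. The macrophage count was 6 with a minimum of 10 TPM and 9 at 2-fold, and the fibroblast count 4 at 2-fold. By construction, a larger added value shrinks the ratios of low genes. The share of all genes called higher in macrophages and in fibroblasts was 5.83% and 8.01% with that pseudocount, 15.2% and 23.6% at 2-fold, and 3.01% and 5.19% with no minimum, where all 34295 genes are the base. Among the 9 genes, the log2 ratio of C1s1 ranged most, from 3.13 with a pseudocount of 5 to 8.19 with 0.1, since its macrophage value is close to 0; C1ra ranged from 2.10 to 2.89 and C3 from -4.45 to -2.02. Over genes that reached 5 TPM in each library, the median log2 ratio without the added 1 was 0.18 toward fibroblasts, and scaling to it changed no call among the 9. No paired analysis was possible because each group has 1 library. The limits are the single library per group, the unknown depth and the reads that C1ra, C1s1 and C4b share with copies.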
